A study of Mus musculus with 12 samples.

Results

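Tsc22d3, Klf9, Sgk1, Mt1, Mt2, Cebpb, Cebpd, Zfp36 and Zfp36l1 are well-known targets of the glucocorticoid receptor. They were taken by gene name from the deposited count and FPKM tables, as 9 of 54532 genes, by a rule that uses no measured value, though the set was drawn up with earlier results of these data known. The libraries were bulk RNA-seq of sorted testis cells from newborn male mice carrying Tg(Pou5f1-EGFP)2Mnn, in which regulatory sequence of Pou5f1 (OCT4) drives GFP in germ cells. Dexamethasone (dex), a synthetic agonist of the glucocorticoid receptor, went into pregnant dams by intraperitoneal injection at E17.5 and E18.5 and into the pups subcutaneously at PN0, at 10 μg per gram each time, and control animals received saline by the same schedule. Testes were taken at PN1, and cells with GFP (germ) were sorted from those without it (somatic), which gave 4 groups of 3 libraries called saline germ, dex germ, saline somatic and dex somatic. The somatic population was a mixture of all cells without GFP. Per the study, a replicate held cells from whole litters pooled together, at least 2 dosed separately, so the error terms below describe the spread between such pools.

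A glucocorticoid that enters a cell binds its receptor in the cytoplasm. The receptor then moves to the nucleus, where it binds DNA, often as a dimer on paired hexamers that face each other, and raises or lowers transcription of nearby genes. Genes such as these 9 are used in many tissues as a readout of that step, and their products act in turn on inflammation, ion transport, metal handling and mRNA decay. In the neonatal testis the germ cells are prospermatogonia, enclosed in cords by Sertoli cells, with Leydig, peritubular, vascular and immune cells outside.

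The stretches before an internal start of Sgk1 and upstream of the metallothionein genes are shown because they hold known kinds of element for steroid and metal responses. They come from RefSeq promoter windows on GRCm38.p6, each running from 250 bases before to 50 bases after a gene start. Windows were found for 8 of the 9 genes, with none for Cebpd. Every window was searched on both strands for the full receptor site, written here as AGAACA and TGTTCT separated by any 3 bases, for the single hexamer AGAACA (of which 2 lie inside each full site), and for the metal response element as TGCACNC or TGCGCNC. In the 95 bases of Sgk1 the capitals mark the full site, at chr10:21993701-21993715. In the other stretches they mark metal response elements, on either strand.
Sgk1, chr10:21993661-21993755, plus strand: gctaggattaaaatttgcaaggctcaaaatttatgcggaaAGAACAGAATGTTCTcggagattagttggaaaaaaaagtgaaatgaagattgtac
Mt1, chr8:94178982-94179081, plus strand: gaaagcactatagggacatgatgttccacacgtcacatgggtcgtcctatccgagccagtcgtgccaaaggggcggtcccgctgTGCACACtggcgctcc
Mt2, chr8:94172368-94172617, plus strand: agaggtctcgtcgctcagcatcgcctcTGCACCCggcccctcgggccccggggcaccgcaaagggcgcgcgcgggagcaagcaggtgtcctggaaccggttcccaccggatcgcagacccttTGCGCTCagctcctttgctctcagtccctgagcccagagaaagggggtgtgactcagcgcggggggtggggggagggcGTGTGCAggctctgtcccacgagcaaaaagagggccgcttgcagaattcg

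The full receptor site occurred in 3 of all 32851 windows (0.00913%), those of Sgk1, Acnat2 and Gm35041. The centre of the Sgk1 site lay 182 bases before one of the 6 RefSeq starts of the gene and 958 bases before another. The other starts came before the site (start minus site centre from -111524 to -1485 bases), so it lay inside the annotated gene. The single hexamer was common, in 19.0% of windows, and among the members the windows of Sgk1 held 5 and those of Tsc22d3 held 1. TGCACNC was found in 12.6% of all windows and TGCGCNC in 15.4%. Across their whole windows, Mt2 held 4 metal response elements and Mt1 held 3, while Sgk1 and Zfp36l1 held 1 each. No match was found for Klf9, Cebpb or Zfp36. These matches describe letters in short windows and no binding was measured in these libraries.

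The 12 libraries held 18459692 to 25178477 counts on genes, and 3 counts, the most that a count of 0 allows for, came to 0.119 to 0.163 CPM, the unit of counts scaled to library size. Germ cell markers summed to 8.38 to 8.41 CPM in saline somatic libraries against 2221 to 2410 in saline germ libraries. Sertoli cell markers summed to 41.7 to 45.0 CPM in saline germ libraries against 3119 to 3255 in saline somatic ones, so the labels and the sort markers matched. Levels of the members are given as CPM scaled by TMM over all 12 libraries, as mean ± SD of 3 libraries, and levels of different genes are compared only as FPKM, which is also divided by gene length.

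In somatic cells dex was accompanied by a rise of most classical targets, and in germ cells by a rise of 1 and a fall of 1. With the quasi-likelihood test of edgeR at an adjusted p of at most 0.05, 7 of the 8 members tested were called higher in dex somatic cells, where 3.91% of the 16766 genes tested were called in either direction and 2.74% were called higher. In germ cells 2 of 8 were called, where the background was 1.25% of 18550 genes, with 0.739% called higher (Klf9) and 0.507% called lower (Tsc22d3). The median log2 fold change of the 8 members was 1.15 in somatic cells and -0.02 in germ cells, beside -0.0066 and -0.0027 over all genes tested. Dex and saline libraries were fully separated for 7 of 8 members in somatic cells (21.4% of all genes) and for 5 of 8 in germ cells (20% of all genes). Mt2 did not pass the filter on low counts and was not tested in these fits. The split of all somatic calls moved with the scaling, with 70.1% of calls higher under TMM and 53.5% with library totals, and 7 members were called higher under both.

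Tsc22d3 encodes GILZ, a leucine zipper protein through which glucocorticoids restrain inflammatory transcription factors (ENSMUSG00000031431, chrX:140539528-140600659, minus strand). Its level was 205, 213 and 195 CPM in the saline germ libraries and 159, 150.0 and 167 CPM in the dex germ libraries. In somatic cells it was 38.3, 37.6 and 45.9 CPM with saline and 81.3, 85.6 and 77.1 CPM with dex. All 3 dex libraries lay below the saline libraries in germ cells and above them in somatic cells, so the same gene moved in opposite directions. The somatic rise was 1.03 ± 0.11 on the log2 scale (2.04-fold, edgeR adjusted p = 8.02e-05). The germ change was -0.37 ± 0.07 (adjusted p = 0.0225), and this call was lost in 7 of 14 alternative analyses, more than any other call of a member, namely without dex germ replicate 1 (adjusted p = 0.0735), without saline germ replicate 1 (0.116) and without saline germ replicate 2 (0.132), and also on FPKM with limma, with the replicate number as a block and with all 12 libraries in 1 fit. The order of the groups was saline germ, dex germ, dex somatic, saline somatic, and each neighbouring pair that was tested differed. Its relatives Tsc22d1, Tsc22d2 and Tsc22d4, of which 3 of 3 were tested, were called in neither population, with log2 fold changes of -0.17 to -0.01 in germ cells and -0.14 to 0.19 in somatic cells.

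Klf9, a Krüppel-like zinc finger repressor that responds to glucocorticoids and thyroid hormone, was the one member called higher in both populations (ENSMUSG00000033863, chr19:23141226-23166911, plus strand). Saline germ libraries had 17.97, 15.9 and 20.3 CPM and dex germ libraries 37.0, 44.7 and 33.0 CPM. The somatic levels were 4.62, 6.50 and 8.80 CPM with saline and 17.45, 15.7 and 13.9 CPM with dex. No dex library overlapped a saline library in either population. The rise was 1.08 ± 0.14 on the log2 scale in germ cells (2.11-fold, adjusted p = 0.0014) and 1.27 ± 0.23 in somatic cells (2.40-fold, adjusted p = 0.00404). On FPKM with limma both calls missed the threshold in at least 1 form, with adjusted p of 0.0576 and 0.0609 in germ cells and 0.0505 in somatic cells at a pseudocount of 0.1. Levels were in the order dex germ, saline germ, dex somatic, saline somatic. The middle pair, saline germ at 18.03 ± 2.21 CPM and dex somatic at 15.7 ± 1.77 CPM, was not tested and had SDs that overlap. Of 16 other KLF genes, 0 of 16 tested were called in germ cells, and in somatic cells 2 of 15 tested were called higher, Klf10 (log2 fold change 0.79 ± 0.13, adjusted p = 0.00253) and Klf15, itself a known glucocorticoid-induced regulator of metabolism (0.97 ± 0.19, adjusted p = 0.00823).

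Sgk1 encodes a serum- and glucocorticoid-induced kinase that controls ion channels and transporters (ENSMUSG00000019970, chr10:21882184-21999903, plus strand), and it is the gene whose full receptor site is printed above. It stood at 75.9, 75.0 and 95.0 CPM in saline germ cells and at 96.9, 99.0 and 101 CPM in dex germ cells. In somatic cells it stood at 18.2, 24.6 and 14.8 CPM with saline and at 25.4, 22.1 and 26.4 CPM with dex. The dex germ libraries all lay above the saline germ ones, though the lowest of them (96.9 CPM) was close to the highest saline library (95.0 CPM), and the somatic groups overlapped. Neither change passed the test, at 0.26 ± 0.09 (adjusted p = 0.191) in germ cells and 0.39 ± 0.16 (adjusted p = 0.237) in somatic cells. Without saline germ replicate 3, the highest of its group, the germ value was 0.38 and was called (adjusted p = 0.0484). Of the related genes, Nedd4l, the ubiquitin ligase that SGK1 phosphorylates, was called higher in germ cells (0.45 ± 0.09, adjusted p = 0.0233) and not in somatic cells (0.22 ± 0.14, adjusted p = 0.498). Sgk3 was called in neither population and Sgk2 was tested in germ cells only, at 0.48 ± 0.59.

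Mt1 and Mt2 encode metallothioneins, small cysteine-rich proteins that bind zinc and copper, and the genes are neighbours whose annotated starts lie 6418 bases apart. Mt1 (ENSMUSG00000031765, chr8:94179082-94180327, plus strand) stood at 86.3, 80.7 and 111 CPM in saline germ cells and at 78.5, 90.1 and 101 CPM in dex germ cells. In somatic cells it stood at 18.8, 13.7 and 25.3 CPM with saline and at 58.2, 55.0 and 42.9 CPM with dex. The germ groups overlapped throughout, and the somatic groups were apart. The somatic rise was 1.45 ± 0.19 on the log2 scale (2.74-fold, adjusted p = 0.000317), and the germ difference was -0.05 ± 0.12 (adjusted p = 0.892), changing sign without dex germ replicate 1 or saline germ replicate 3. The 2 germ groups did not differ beyond their spread and came first in the order, followed by dex somatic and saline somatic cells.

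Mt2 (ENSMUSG00000031762, chr8:94172664-94173568, plus strand) had 11, 1 and 13 counts in the saline germ libraries and 1, 4 and 0 counts in the dex germ libraries. All 6 somatic libraries had 0 counts, which allows up to 3 counts in each, or 0.158 CPM by total counts in the shallowest somatic library. In the GENCODE M21 annotation, 432 of the 588 exonic bases of Mt2 (73.5%) lie under the single exon of Gm45774, an antisense gene, which leaves 156 bases to Mt2 alone. Gm45774 had 275 counts over the 12 libraries and Mt2 had 30. Among protein-coding genes, the 91 with at least 70% of exonic bases under exons of the opposite strand and none under another gene on their own strand had a median FPKM of 0.00412, against 1.35 for the 15386 with no shared exonic base. The strand setting of the read counting was not given in the sources used here. The count of Mt2 is not read here as a level of its mRNA, and the part of the shared exon in the low count was not tested. Of the other metal genes, Mt3, Mtf1, the zinc-sensing activator of metallothionein genes, and the zinc exporter Slc30a1 were tested and called in neither population, with changes of -0.08 to 0.22 in germ cells and 0.03 to 0.38 in somatic cells.

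**Figure D1:**
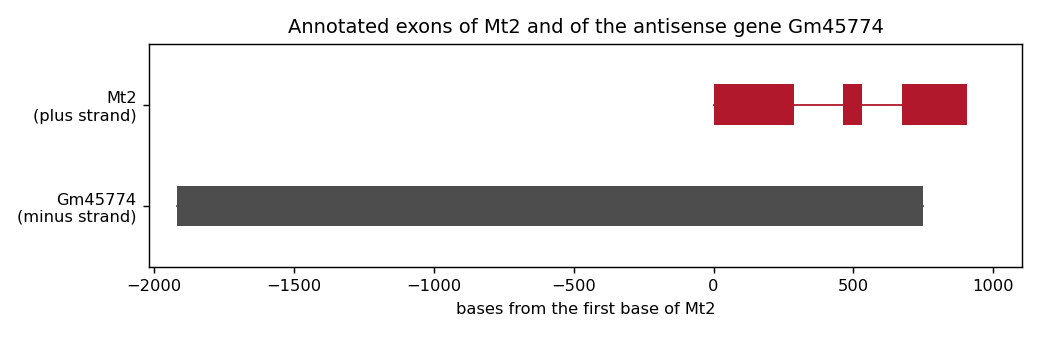
Annotated exons (boxes) of Mt2 and of the antisense gene Gm45774 by distance in bases from the first base of Mt2. The exon of Gm45774 covers 432 of the 588 exonic bases of Mt2 and reaches upstream of it.

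Cebpb and Cebpd encode C/EBP transcription factors that act in acute-phase and adipocyte gene programmes, and both are induced early by glucocorticoids in other tissues. Cebpb (ENSMUSG00000056501, chr2:167688915-167690418, plus strand) stood at 8.64, 11.8 and 15.6 CPM in saline germ cells and at 8.26, 16.6 and 11.5 CPM in dex germ cells. Its somatic levels were 41.7, 29.1 and 42.9 CPM with saline and 115, 84.2 and 78.0 CPM with dex. Only the somatic groups were apart, with a rise of 1.30 ± 0.16 (2.47-fold, adjusted p = 0.000224), while the germ value was 0.01 ± 0.25 (adjusted p = 0.991) and its sign changed in 3 of 14 alternative analyses.

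Cebpd (ENSMUSG00000071637, chr16:15887286-15891031, plus strand) had the largest somatic fold change of the 8 members tested with edgeR. Saline somatic libraries had 50.1, 24.4 and 61.9 CPM and dex somatic libraries 213, 187 and 146 CPM. In germ cells it was 3.64, 5.16 and 4.29 CPM with saline and 2.35, 3.29 and 4.56 CPM with dex, and the groups overlapped. The somatic rise was 2.02 ± 0.24 (4.05-fold, adjusted p = 0.000165), and without saline somatic replicate 2, the lowest library, it was still called. The germ value was -0.36 ± 0.28 (adjusted p = 0.596). Cebpd in germ cells amounted to 9.60% of its somatic level with saline and 1.87% with dex, where the summed Sertoli markers amounted to 1.36% and 0.960%, the Leydig markers to 2.68% and 1.96% and the peritubular markers to 1.12% and 0.910%. Other lists lay above Cebpd, with endothelial markers at 27.6% and 26.0%, macrophage markers at 16.5% and 55.9% and lymphocyte markers at 154% and 542%. Erythroid markers, at 2.76% and 3.24%, lay above it with dex only, as did the Leydig markers by a small margin (1.96% against 1.87%). With saline, 2 of 6 endothelial and 1 of 3 lymphocyte markers tested were called higher in germ cells. Of the macrophage markers, 7 of 7 were called lower in germ cells with saline, and with dex 5 of 6 tested were called lower and 1 higher. The sums of these 3 lists thus include genes that were called higher in germ cells under at least 1 treatment. Other cells' RNA in the germ sort was not tested as a part of the low germ level. In the same family Cebpa was called lower in somatic cells (-0.60 ± 0.09, adjusted p = 0.000847), and Cebpe and Cebpg were called in neither population. In the annotation, 20.7% of the exonic bases of Cebpb are shared with Tmem189 and 15.0% of those of Cebpd with Spidr, both on the opposite strand.

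Zfp36 and Zfp36l1 encode zinc finger proteins (the first is tristetraprolin) that bind AU-rich elements and hasten the decay of cytokine and other mRNAs. Zfp36 (ENSMUSG00000044786, chr7:28376784-28380253, minus strand) had 37.8, 25.6 and 41.1 CPM in saline germ cells and 43.2, 49.5 and 42.9 CPM in dex germ cells. Somatic cells had 178, 118 and 214 CPM with saline and 373, 295 and 317 CPM with dex. The groups did not overlap in either population, and the change passed the test in somatic cells (0.97 ± 0.17, 1.96-fold, adjusted p = 0.00291) and not in germ cells (0.37 ± 0.15, adjusted p = 0.240). On FPKM with limma the somatic adjusted p was 0.0705 and 0.0712.

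Zfp36l1 (ENSMUSG00000021127, chr12:80107754-80113013, minus strand) had 45.3, 44.2 and 45.4 CPM in saline germ cells and 34.6, 35.4 and 35.9 CPM in dex germ cells. The SD was 0.666 CPM with saline and 0.672 CPM with dex. In somatic cells it rose from 198, 235 and 198 CPM to 337, 329 and 289 CPM. The groups were apart in both populations and in opposite directions. The somatic change was 0.63 ± 0.08 (1.55-fold, adjusted p = 0.000317), and the germ value was -0.36 ± 0.10 (adjusted p = 0.0862), which DESeq2 called (adjusted p = 0.0214). Of its exonic bases, 55.9% are shared with the long non-coding gene Gm26669 on the other strand, which had 352 counts over the 12 libraries against 36777 for Zfp36l1. Zfp36l2 was called in neither population (0.04 ± 0.07 in germ and -0.04 ± 0.11 in somatic cells). Of 10 mRNAs known for AU-rich elements, 2 were tested in germ cells and 6 in somatic cells. The one called was Tnf, lower in dex somatic cells (-2.34 ± 0.53, adjusted p = 0.0194). It had 145, 59 and 220 counts in saline somatic libraries and 35, 10 and 31 in dex somatic libraries. Summed macrophage markers were lower there too, at 52.0 to 89.9 CPM with saline and 24.4 to 33.1 CPM with dex. Whether the fall of Tnf is tied to Zfp36 or to these cells was not tested.

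**Figure D2:**
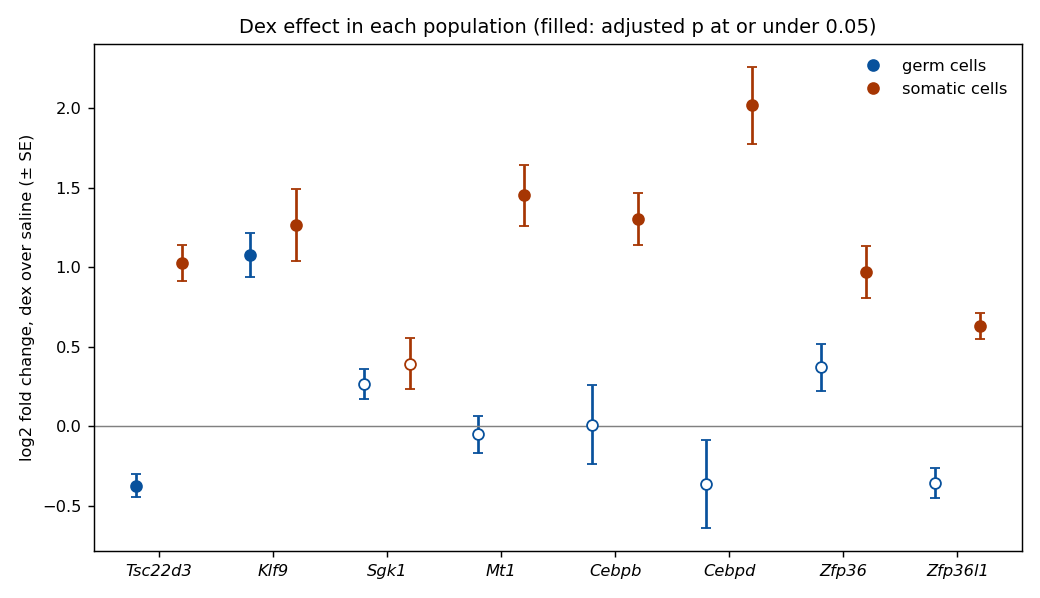
Log2 fold change of dex over saline for the 8 members tested, in germ cells (blue) and somatic cells (brown), with bars of 1 SE, filled where the adjusted p was at most 0.05. All 8 somatic values lie above 0 and 7 are filled, while germ values scatter around 0 with Klf9 (1.08) and Tsc22d3 (-0.37) filled.

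The size of the dex effect itself differed between the populations for 4 of the 8 members. Tested as germ effect minus somatic effect in 1 model over the 12 libraries, the difference was -1.37 ± 0.13 for Tsc22d3 (adjusted p = 3.2e-05), -0.95 ± 0.12 for Zfp36l1 (0.00106), -1.48 ± 0.25 for Mt1 (0.011) and -2.36 ± 0.42 for Cebpd (0.0126). Over 20551 genes, 0.827% were called in either direction and 0.414% in this one. Of the 170 genes called, 50% were higher in germ cells under TMM, and with library totals this was 67.0%, while the number of members called was 4 under both. The other members were not called, at -1.26 ± 0.34 for Cebpb (adjusted p = 0.0946), -0.58 ± 0.26 for Zfp36 (0.339), -0.15 ± 0.28 for Klf9 (0.907) and -0.09 ± 0.21 for Sgk1 (0.948). The median over the 8 members was -1.11, beside 0.03 over all genes. The Cebpd call was lost without dex germ replicate 1 (adjusted p = 0.0541) and without saline germ replicate 2 (0.0546), and Cebpb was called without dex germ replicate 2 (0.0415).

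Markers of other gene groups and cell types also moved with dex in somatic libraries. Over all genes tested, 2.74% were called higher and 1.17% lower in somatic cells, and 1.25% in either direction in germ cells. Of 7 macrophage markers, all found at 1 CPM or more, 3 were called lower (Lyz2, Csf1r and Mrc1), and their sum was 52.0 to 89.9 CPM with saline and 24.4 to 33.1 CPM with dex. Of 6 peritubular and stromal markers, 3 were called higher (Dcn, Acta2 and Pdgfra), from 2627 to 3302 CPM in sum with saline and 3733 to 4240 CPM with dex. Erythroid markers were called lower for 2 of the 4 tested, the sum running from 256 to 394 CPM with saline and from 85.3 to 299 CPM with dex. Hba-a2 of that list was at 3 counts or fewer in every somatic library. Lymphocyte markers summed to 4.31 to 5.33 CPM with saline and to 0.964 to 1.72 CPM with dex. Of 6 Leydig markers, 1 was called lower (Star) and all 6 fold changes lay below 0, with a median of -0.35. Their sums overlapped, at 540 to 630 CPM with saline and 487 to 607 CPM with dex. Of 6 endothelial markers, 1 was called lower (Tek) and 5 lay below 0, with a median of -0.52. Their sums did not fall, at 251 to 286 CPM with saline and 249 to 324 CPM with dex. Of 7 Sertoli markers, 0 were called, with sums of 3119 to 3255 CPM with saline and 2854 to 3308 CPM with dex. Immediate-early and stress genes that respond to tissue dissociation also moved, with 5 of 20 called higher in dex somatic cells, Ier2, Fos, Dusp1 and Socs3 first by p, and sums of 7136 to 10063 CPM with saline and 11118 to 12841 CPM with dex. In germ cells 0 of these 20 were called, with sums of 867 to 1148 CPM with saline and 992 to 1177 CPM with dex. Zfp36, Cebpb, Cebpd and Mt1 are themselves known to be induced when tissue is dissociated, and Dusp1 is counted in the list of glucocorticoid-responsive genes too. In germ cells the Sertoli markers moved, from 41.7 to 45.0 CPM in sum with saline to 24.7 to 32.5 CPM with dex, with 0 of 6 called. Leydig markers summed to 14.5 to 17.2 CPM in saline germ and 9.18 to 12.5 CPM in dex germ libraries, erythroid markers to 7.53 to 9.07 and 4.33 to 6.89 CPM, and macrophage markers, the other way, to 9.34 to 13.1 and 14.6 to 17.1 CPM, and no tested gene of these lists was called in germ cells. In these bulk libraries a lower number of cells of a type and less RNA per cell cannot be told apart, and the part of any of these shifts in the changes of the 9 genes was not tested.

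Other glucocorticoid-responsive genes were counted from a list of 26. In somatic cells 14 of 24 tested were called higher and 0 lower, with a median log2 fold change of 0.56, and in germ cells 4 of 24 were called higher and 0 lower, with a median of 0.14. Over all genes tested, 2.74% were called higher in somatic cells and 0.739% in germ cells. The somatic calls with the smallest p were Hif3a (1.21 ± 0.09), the transcription factor gene Zbtb16 (3.98 ± 0.37), Crispld2 (1.07 ± 0.11) and the cell cycle inhibitor Cdkn1c (1.07 ± 0.12). The clock gene Per1 (0.74 ± 0.08) and the MAP kinase phosphatase gene Dusp1 (0.45 ± 0.09) were called higher as well, while Fkbp5, a co-chaperone of the receptor, was not (0.17 ± 0.08, adjusted p = 0.290). In germ cells the 4 calls were Ddit4, an inhibitor of mTORC1 signalling (1.61 ± 0.18), Pik3r1 (0.60 ± 0.10), Crispld2 (0.45 ± 0.10) and Tgm2 (0.74 ± 0.17). Zbtb16 in germ cells was -0.20 ± 0.07 (adjusted p = 0.199) at a level of 342 ± 26.2 CPM with saline, against 1.19 ± 0.915 CPM in saline somatic cells and 18.7 ± 5.35 CPM in dex somatic cells. Per1, Fkbp5 and Dusp1 were not called in germ cells, at 0.10, 0.07 and 0.16. The dex effect differed between populations for 7 of 26, lower in germ cells for 6 (Zbtb16, Errfi1, Hif3a and Angptl4 first by p) and higher for Ddit4 (1.49 ± 0.27, adjusted p = 0.0152). Over all genes, 0.827% were called for this difference.

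**Figure D3:**
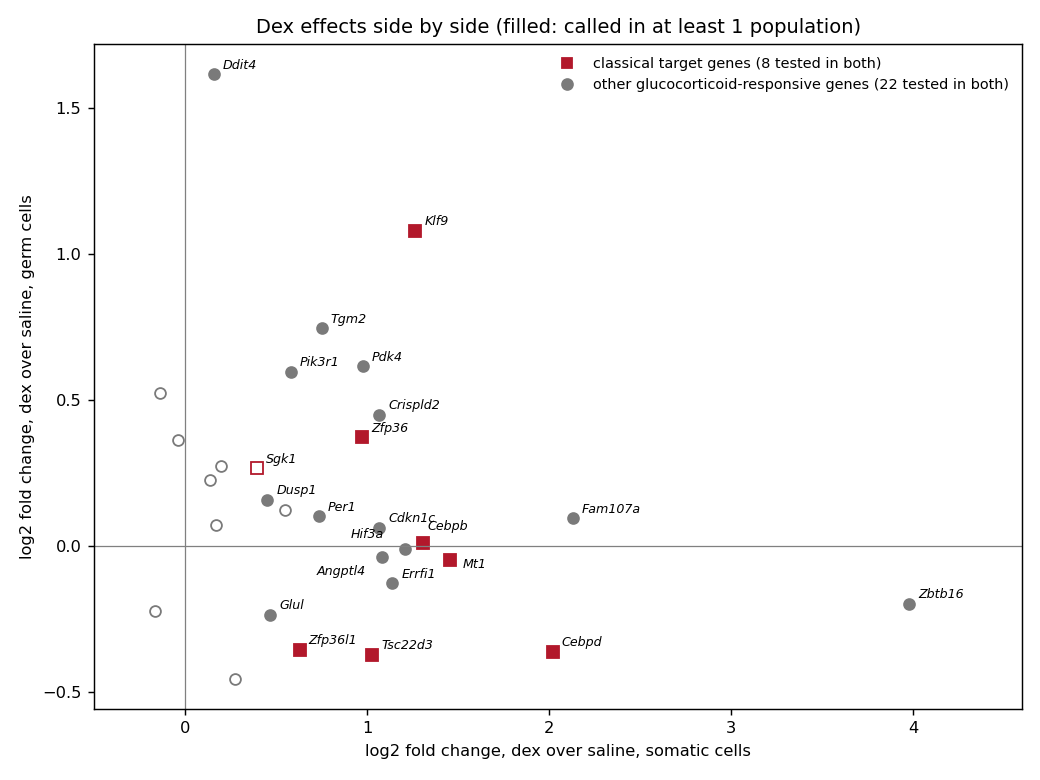
Log2 fold change of dex over saline in somatic cells (horizontal) and germ cells (vertical) for the members (red squares) and the other glucocorticoid-responsive genes tested in both populations (grey circles), filled where called in at least 1 population. Most filled points lie to the right near the horizontal line, Klf9 lies high on both axes, and Ddit4 lies high in germ cells alone, at 1.61 beside 0.16 in somatic cells.

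The members also differed between the populations without dex. All 8 tested differed between germ and somatic cells with saline, where 76.5% of 18870 genes did, so the count is close to the background. Tsc22d3 (2.33 ± 0.10), Mt1 (2.26 ± 0.20), Sgk1 (2.09 ± 0.17) and Klf9 (1.44 ± 0.23) were higher in germ cells, as were 39.8% of genes. Cebpd (-3.39 ± 0.31), Zfp36 (-2.29 ± 0.21), Zfp36l1 (-2.23 ± 0.09) and Cebpb (-1.66 ± 0.22) were lower, as were 36.7%. With dex, 76.3% of 18778 genes differed, 40.5% higher and 35.7% lower in germ cells, and again 4 members were higher and 4 lower, the same genes on each side. Tsc22d3 was then 0.96 ± 0.08 and Mt1 0.78 ± 0.13 above the somatic level, against 2.00 ± 0.10 for Sgk1 and 1.28 ± 0.16 for Klf9. Cebpd was -5.74 ± 0.21, Zfp36l1 -3.18 ± 0.09, Cebpb -2.92 ± 0.23 and Zfp36 -2.86 ± 0.11. For Cebpb, Cebpd, Zfp36 and Zfp36l1 the order of the groups was thus dex somatic, saline somatic and then both germ groups, which the test did not tell apart. For Sgk1 both germ groups came before both somatic groups, and within a population the treatments were not told apart. These comparisons share their libraries with the dex comparisons and are given as each contrast's own values.

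**Figure D4:**
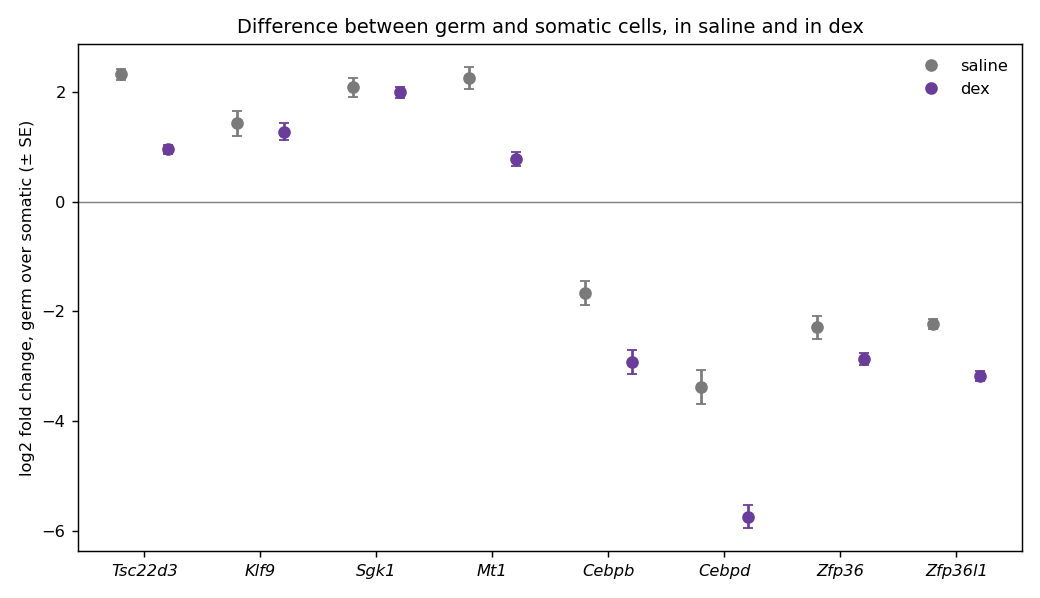
Log2 fold change of germ over somatic cells for the 8 members tested, with saline (grey) and with dex (purple), with bars of 1 SE. Tsc22d3, Klf9, Sgk1 and Mt1 lie above 0 and the C/EBP and ZFP36 genes below it under both treatments, and the dex value is the lower one for each gene.

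Per length, Mt1 was the most abundant member in saline germ cells, at 75.7 ± 13.6 FPKM, followed by Tsc22d3 at 47.9 ± 1.91 FPKM, Sgk1 at 17.0 ± 2.46 FPKM and Zfp36l1 at 15.3 ± 0.273 FPKM. Cebpd was the lowest of the 8, at 1.19 ± 0.210 FPKM. Sgk1 and Zfp36l1 did not differ beyond their spread. In saline somatic cells the order began instead with Zfp36l1 at 65.7 ± 4.74 FPKM and Zfp36 at 46.1 ± 14.1 FPKM, and Klf9 came last at 1.91 ± 0.619 FPKM. With dex, Zfp36l1 and Zfp36 in somatic cells reached 102 ± 8.02 and 90.7 ± 10.1 FPKM, values whose SDs overlap, and Cebpb and Cebpd reached 58.7 ± 11.97 and 46.5 ± 8.38 FPKM. In dex germ cells Mt1 at 74.2 ± 9.41 FPKM and Tsc22d3 at 37.6 ± 2.02 FPKM still led, with Klf9 at 12.1 ± 1.87 FPKM beside Zfp36l1 at 12.2 ± 0.261 FPKM. Gene lengths in these values include the exonic bases shared with other genes.

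The profiles of several members resembled each other over the 12 libraries. After the mean of each population was subtracted from log2 CPM, the gene closest to Mt1 among 12864 genes was Cebpd (Pearson's r = 0.966), then Errfi1 (0.930), and the genes closest to Cebpd were Errfi1 (0.970) and Mt1. Zfp36 was closest to Socs3 (0.966) and Reep6 (0.956), Cebpb to Nrxn2 (0.958) and Cope (0.929), and Zfp36l1 to Hsd17b11 (0.934) and Acot7 (0.929). Tsc22d3 was closest to Atp10a (0.956) and Ncam1 (0.945), Klf9 to Nicn1 (0.947) and Tgm2 (0.939), and Sgk1 to Tcp11l2 (0.954) and Fam217b (0.909). The coefficients are descriptions over libraries that share treatment and sort, with the most like genes picked from all, and carry no test. Between members they ran from 0.236 for Tsc22d3 and Sgk1 to 0.966 for Mt1 and Cebpd.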

How the data were processed

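Total RNA of sorted cells was sequenced after poly-dT selection. The authors aligned paired reads to mm10 with HISAT2 2.0.5 and counted them per gene with featureCounts 1.5.0-p3, and the deposited raw counts are not normalized. The annotation release and strand setting were not given in the sources used here. The deposited FPKM are, within 0.1%, each count divided by gene length and by a constant per library that was 0.956 to 1.04 times its total count. The deposited tables of the authors' own comparisons hold fold changes and p-values made with DESeq2 1.20.0 and were not used.

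Counts were tested with edgeR 4.0.16 (R 4.3.3) by the quasi-likelihood test, with TMM, filterByExpr at a minimum count of 10 and Benjamini-Hochberg adjustment over all genes tested, on the 6 libraries of each comparison and on all 12 for the difference of dex effects. SE is the log2 fold change divided by the square root of F. Alternatives used DESeq2 1.42.0, limma 3.58.1 on log2(FPKM + 0.1) and log2(FPKM + 1), other scalings, filters, blocks and samples. The code was tested on simulated data. The members, lists and named genes (every member, up to 4 called genes a list and comparison by smallest p, Per1, Fkbp5, Zbtb16 and Dusp1, the partners of small families, and the 2 genes of highest r with each member at an average log2 CPM of at least 2 with a prior count of 2) were chosen with earlier results of these data known. Genes were matched to GENCODE M21, where Klf9 has other coordinates, and promoters to RefSeq.

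Library totals were 18459692 to 25178477 counts, and floors cover counting error only. Replicates differed by more than sampling noise (chi-square per degree of freedom 6.11 to 20.3), so none was counted as a copy and the spread between them, more than depth, limits the precision of the tested members. Replicate numbers come from the labels. In saline, germ and somatic libraries of the same number deviated together (r = 0.125 to 0.245, over 0.1 in each pair). The values given above, also those for the difference of dex effects, come from fits without this pairing. With the replicate block as an alternative, 14157 genes were called in saline in place of 14441, and all 8 members kept their call. In the other comparisons libraries of the same number did not consistently deviate together. Such correlations cannot show whether dex germ and dex somatic libraries of the same number came from the same pool. Where a left-out replicate leaves unequal groups, the spread is pooled over groups. Under 2% of the 64-base words of any member occurred in a gene elsewhere.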

Additional observations from a re-analysis of the deposited data

Results flagged for a closer look

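For 4 members the dex effect in germ cells differed from that in somatic cells by the interaction test of edgeR over 12 libraries, each with germ minus somatic given on the log2 scale. For Tsc22d3 the difference was -1.37, with all dex libraries below saline in germ cells and above it in somatic cells. For Zfp36l1 it was -0.95, with the same pattern of libraries, though the germ change alone was not called. For Mt1 it was -1.48 and for Cebpd -2.36, where the germ groups overlapped and the somatic groups did not. Macrophage, peritubular, erythroid, lymphocyte and dissociation markers moved with dex in somatic libraries. In germ libraries the sums of Sertoli, Leydig, erythroid and macrophage markers moved, with no tested gene of these lists called. The part of any of these shifts in the 4 differences was not tested.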

How the results depend on the processing

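All 8 tested members kept their call and direction between germ and somatic cells, in saline and in dex, under all 14 alternatives of each. In somatic cells the 7 calls held under 12 of 14 alternatives. The exceptions were limma on log2(FPKM + 0.1), where Klf9 and Zfp36 were lost, and on log2(FPKM + 1), where Zfp36 was lost. In germ cells the number of members called was 0 with limma at either pseudocount and 1 with the replicate block or all 12 libraries, and 1 to 3 when a replicate was left out. Genes called in germ cells were 677 with DESeq2, 767 with no filter on low counts, 65 with the replicate block, 6 and 12 with limma at pseudocounts of 0.1 and 1, 142 with all 12 libraries and 49 (without saline germ replicate 1) to 265 without 1 replicate, against 231. Those in somatic cells were 1061 with no filter, 251 and 281 with limma, 669 with the block and 354 (without saline somatic replicate 3) to 547 without 1 replicate, against 655. For the difference of dex effects they were 620 with DESeq2, 706 with no filter, 262 with at least 10 counts in every library, 104 with the replicate block, 90 with the block within treatment, 57 with limma at 0.1 and 79 (without saline somatic replicate 3) to 172 without 1 replicate, against 170. Members called for that difference were 2 with limma at 0.1, where Mt1 (adjusted p = 0.0737) and Cebpd (0.0657) were lost, and 3 to 5 without 1 replicate. With no filter, Cebpb (7.67e-07) and Zfp36 (0.0067) were called too. The no-filter and limma fits test other sets of genes or another scale. The cause of the other shifts was not tested.

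Signs reversed only for values that were not called. In germ cells Mt1 ran from -0.14 to 0.10 without 1 replicate (above 0 without dex germ replicate 1 or saline germ replicate 3), and Cebpb from -0.29 to 0.24 (below 0 without dex germ replicate 2 or saline germ replicate 1), with -0.010 under the replicate block. For the difference, Klf9 was 0.011 with limma at a pseudocount of 1 and ran from -0.40 to 0.025 without 1 replicate (above 0 without saline somatic replicate 1), and Sgk1 from -0.30 to 0.07 (above 0 without saline germ replicate 3 or saline somatic replicate 3). Same-numbered libraries correlated at -0.294 to 0.204 across germ treatments, -0.024 to -0.0063 across somatic treatments and -0.0665 to 0.0308 between populations in dex. The block changed the call of Tsc22d3 in germ cells (adjusted p = 0.0885) and of no other member. Mt2, with at most 13 counts in a library, did not pass the filter in the main fits, and the cause of its low count was not tested. Some alternatives did test it. With saline it was called higher in germ than in somatic cells by DESeq2 and with no filter. The same held without saline germ replicate 2 or without any 1 saline somatic replicate. As every saline somatic library had 0 counts of Mt2, it could pass a filter only through germ libraries and could be called only in this direction. The calls rest on 11, 1 and 13 germ counts, and no difference in mRNA level is read from them.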
